A study of Homo sapiens with 4 samples.

Results

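The genes described here are 33 genes of DNA double-strand break repair, interstrand crosslink repair, the damage checkpoint and excision repair. Each was chosen by symbol from a fixed list of names and not by its values. Earlier results of these data were known when the genes were chosen. All 33 were among the 29286 genes with values. They were divided by role into 13 genes of homologous recombination and the RecQ helicases, 6 Fanconi genes, 4 checkpoint kinase genes, 5 end-joining genes and 5 genes of excision and single-strand break repair. RNA had been sequenced from HCT116, an established human colorectal carcinoma line. The 2 groups were cells carrying a lentiviral control hairpin (called shNC2 in sample titles and shNC here) and cells carrying a lentiviral hairpin against WDR43 (shWDR43), with 2 libraries each. Both groups had 48 h of infection and 3 days of puromycin, so virus and drug were common to treated and control cells. One hairpin per group was named, so an effect of the hairpin sequence and an effect of losing WDR43, a nucleolar protein of small ribosomal subunit assembly, cannot be told apart. Nothing in the labels says that replicates were separate cultures, so the p-values speak only of variation among these 4 libraries, and that variation may be technical.

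Homologous recombination copies the sister chromatid to mend a broken DNA end after replication. BRCA1 and its partner BARD1 promote the trimming of that end, and PALB2 and BRCA2 act next, when the end is made ready for the search for a matching strand. The Fanconi proteins act when both strands are tied together by a crosslink: a core complex that includes FANCA, FANCB, FANCC and FANCG marks the FANCD2 and FANCI pair with ubiquitin. Non-homologous end joining works through the cell cycle instead, with the Ku proteins XRCC6 and XRCC5, the kinase PRKDC, and the ligase LIG4 with XRCC4. ATM and ATR sense breaks and single-stranded DNA and signal through CHEK2 and CHEK1. In dividing tumour cells many recombination and Fanconi genes are transcribed mostly in S phase, while the Ku genes are transcribed throughout the cycle.

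Values were read as FPKM, fragment counts scaled by transcript length and library total, a unit inferred from the values. The FPKM sums were 393582 to 413758 per library, and with no read totals the depth of the values is unknown. No value for WDR43 was used here, so the labels were not checked against the targeted gene. The epithelial genes EPCAM, KRT8, KRT18 and KRT19 were all above 150 FPKM in each library, and VIL1 and LGALS4, markers of differentiated colon cells, were at or near 0. The 8 epithelial genes summed to 1750 and 2070 FPKM in shNC and 2500 and 2440 FPKM in shWDR43. The higher shWDR43 sums came from the keratins KRT8, KRT18 and KRT19. EPCAM, CDH1 (28.9 to 34.1 FPKM over the libraries) and CDX2 (1.59 to 1.74 FPKM) overlapped between groups. Summed levels were 5.69 to 7.80 FPKM for fibroblast genes, nearly all from COL1A1, 0.254 to 0.498 FPKM for leukocyte genes and 0.235 to 0.401 FPKM for endothelial genes. Of 30 G1/S and replication genes, 7 rose and 0 fell in the limma test described below, with 28 positive differences. Of 30 G2/M and mitosis genes 1 rose and 2 fell, with 25 negative differences. Of all tested genes 4.79% rose and 1.47% fell, and 58.0% had a positive difference. The counts of these lists were not made under other scalings. The part of these cell-cycle genes in the values below was not tested.

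None of the 33 repair genes passed the test between shWDR43 and shNC. The test was limma on log2(FPKM + 1) with Benjamini-Hochberg adjustment over 13303 genes that reached 1 FPKM in 2 or more libraries, which all 33 repair genes passed. In that fit 6.26% of tested genes were called at an adjusted p below 0.05, 4.79% higher and 1.47% lower in shWDR43. The split of these calls moved with scaling, from 637 higher and 196 lower to 292 and 231 under median-ratio scaling, 327 and 287 under upper-quartile scaling, and 441 and 250 with equal sums without MT- genes. The lowest adjusted p of a repair gene was 0.133, for XRCC5. At an unadjusted p below 0.05 there were 5 repair genes, RAD54L, RECQL4, XRCC5 and PARP1 with higher and ATM with lower values, against 26.4% of all tested genes. Exact permutation of 2 libraries against 2 cannot give a p below 0.333 for a single gene.

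Differences were small as well as uncalled. The 33 log2 differences ran from -0.49 for ATM to 0.31 for RAD54L. Their median was 0.05, and so was that of all tested genes. Of the 33 differences 23 were positive, and 16, 14 and 18 were under median-ratio scaling, upper-quartile scaling and equal sums without MT- genes. The 95% interval of the difference lay wholly within a 1.5-fold change for 31 of the 33, the exceptions being ATM and RAD54L, and for 77.6% of all tested genes. On a log2(FPKM + 0.1) scale, which compresses low genes less, it did so for 27, and BRCA2, FANCB, XPA and XRCC2 were added to the exceptions. In 11 repair genes both shWDR43 libraries lay above both shNC libraries and in 7 below, against 35.8% and 21.5% of all tested genes. The median absolute difference between groups was 0.134 on the log2 scale, while shNC replicate 2 differed from shNC replicate 1 by a median of 0.146 and shWDR43 replicates by 0.0665. For all tested genes these medians were 0.157, 0.144 and 0.0861. The group difference is between means of 2 libraries, which vary less than the single libraries of a replicate difference. It exceeded both replicate differences in 10 repair genes, a count that was not made for all tested genes.

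**Figure D1:**
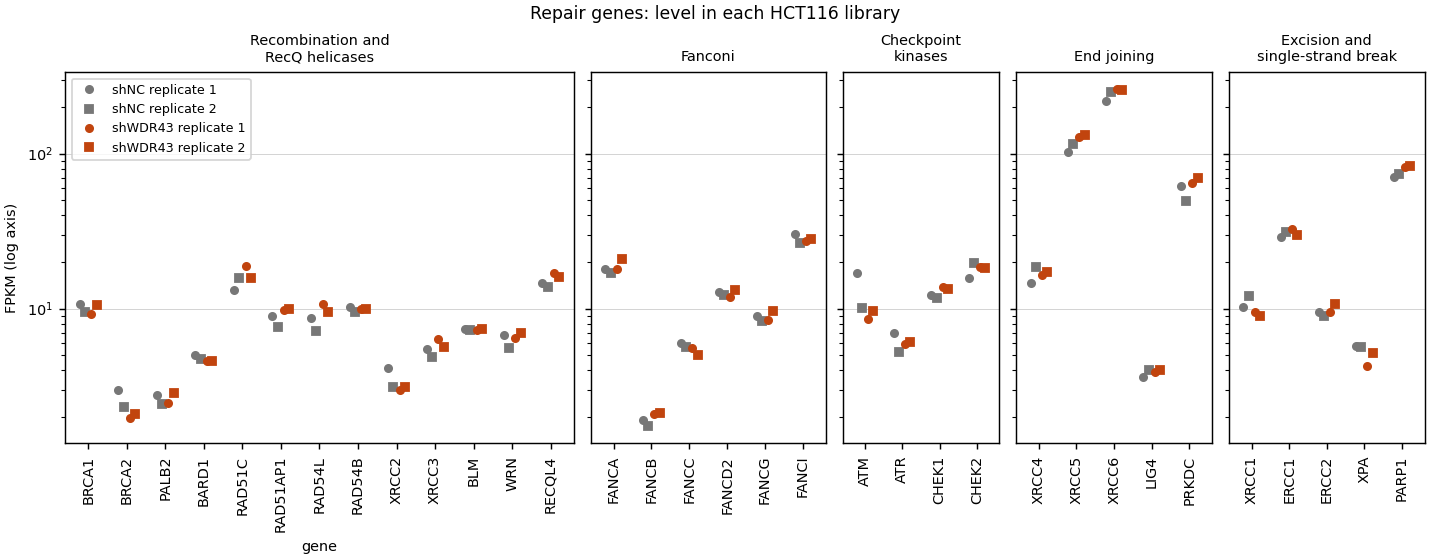
FPKM of each repair gene (log axis) in the 4 libraries, by role, with grey for shNC and orange for shWDR43 and circles and squares for replicates 1 and 2. XRCC6, XRCC5, PARP1 and PRKDC stand above 40 FPKM in all libraries, and in 15 of the 33 genes the groups overlap.

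Recombination genes were mostly expressed at a few to 20 FPKM, and 9 of the 13 had a positive difference (median 0.03), of which PALB2, RAD54B and BLM turned negative under each of the 3 other scalings. BRCA1, a ubiquitin ligase and scaffold of end resection, was at 10.7 and 9.54 FPKM in the shNC libraries, against 9.21 and 10.5 FPKM with shWDR43. Its groups overlapped, and the log2 difference was -0.03 ± 0.11 (SE). BARD1, which forms the ligase with BRCA1, was at 5.01 and 4.71 FPKM against 4.62 and 4.62 FPKM, with shWDR43 narrowly below in both libraries. BRCA2, a mediator of strand exchange, was at 2.97 and 2.31 FPKM in the shNC libraries, against 1.97 and 2.09 FPKM with shWDR43. Both shWDR43 values lay below, at a log2 difference of -0.26 ± 0.13 (SE; limma adjusted p = 0.271), and it was -0.12 and -0.39 on leaving out shNC replicate 1 and shNC replicate 2. PALB2, the bridge between BRCA1 and BRCA2, was at 2.79 and 2.42 FPKM against 2.47 and 2.87 FPKM, with overlap.

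Of the 6 other recombination genes outside the RecQ family, 5 had a positive difference, and that of RAD54B turned negative under each of the 3 other scalings. RAD54L, a motor protein of strand invasion, was at 8.74 and 7.17 FPKM in the shNC libraries, against 10.8 and 9.44 FPKM with shWDR43. The groups did not overlap, at a log2 difference of 0.31 ± 0.12 (SE; limma adjusted p = 0.146), but 25.1% of its exon length is shared with LRRC41 on the opposite strand and reads of the pair may not be separable. RAD51AP1, an accessory protein of strand invasion, had 8.92 and 7.66 FPKM against 9.85 and 9.88 FPKM, again without overlap, at 0.23 ± 0.10 (SE), with 0.33 and 0.13 on leaving out shNC replicate 1 and shNC replicate 2. RAD51C, a subunit of recombination mediator complexes, had 13.2 and 15.8 FPKM against 19.0 and 15.8 FPKM, where the second libraries of both groups nearly coincided. XRCC3, which pairs with RAD51C, was at 5.45 and 4.87 FPKM against 6.39 and 5.69 FPKM, but KLC1 on the opposite strand covers 76.7% of its exon length at a mean of 40.3 FPKM, so the XRCC3 level is uncertain. XRCC2, a subunit of another mediator complex, was at 4.13 and 3.12 FPKM against 3.00 and 3.11 FPKM, and shNC replicate 1 alone stood apart. RAD54B, a relative of RAD54L, was at 9.49 to 10.3 FPKM in all libraries, with FSBP sharing 59.1% of its exon length on the same strand.

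The 3 RecQ helicase genes differed in spread. BLM, the helicase that dissolves crossed recombination intermediates, lay between 7.30 and 7.38 FPKM in all 4 libraries, at 7.35 and 7.30 FPKM against 7.33 and 7.38 FPKM. Its log2 difference was 0.0045 with a 95% interval from -0.21 to 0.22. WRN, the Werner syndrome helicase, was at 6.79 and 5.58 FPKM against 6.44 and 6.94 FPKM, with overlap. RECQL4, which also takes part in replication initiation, was at 14.6 and 13.7 FPKM in the shNC libraries, against 17.0 and 16.1 FPKM with shWDR43. Both shWDR43 libraries were higher, at 0.21 ± 0.09 (SE; limma adjusted p = 0.176).

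Fanconi genes had the smallest median absolute log2 difference of the 5 roles, 0.0885, with 3 positive and 3 negative values from -0.12 to 0.15. FANCG turned negative under median-ratio and upper-quartile scaling. FANCA, a core subunit, was at 17.9 and 17.0 FPKM in the shNC libraries, against 18.0 and 20.9 FPKM with shWDR43. The nearest values of the groups were almost equal, and ZNF276 on the opposite strand shares 23.6% of the FANCA exon length. FANCB, the X-linked core subunit, was the lowest of the 33 at 1.92 and 1.74 FPKM against 2.10 and 2.11 FPKM. FANCC, a core subunit, was at 6.04 and 5.64 FPKM against 5.55 and 5.02 FPKM, and FANCG, which binds FANCA, at 9.02 and 8.34 FPKM against 8.44 and 9.68 FPKM. FANCC lay lower in both shWDR43 libraries, and FANCG overlapped.

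The ubiquitinated pair of the Fanconi pathway did not separate the groups. FANCD2 was at 12.7 and 12.2 FPKM in the shNC libraries, against 11.8 and 13.1 FPKM with shWDR43. The log2 difference was -0.0032, with a 95% interval from -0.22 to 0.21. FANCI was at 30.2 and 26.7 FPKM against 27.4 and 28.1 FPKM, at -0.03 with an interval from -0.24 to 0.18. In both genes the shWDR43 values fell between or beside the shNC values.

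Checkpoint kinase genes held the largest single difference, that of ATM. ATM, the kinase that responds to double-strand breaks, was at 16.9 and 10.1 FPKM in the shNC libraries, against 8.57 and 9.60 FPKM with shWDR43. shNC replicate 1 stood far above the other 3 libraries, and shNC replicate 2 was close to shWDR43. The log2 difference was -0.49 ± 0.20 (SE; limma adjusted p = 0.171), at -0.15 without shNC replicate 1 (adjusted p = 0.368) and -0.83 without shNC replicate 2 (adjusted p = 0.00373). ATR, the kinase of stalled forks, was at 6.92 and 5.22 FPKM against 5.96 and 6.09 FPKM, with both shWDR43 values between those of shNC. CHEK1, the kinase below ATR, was at 12.2 and 11.6 FPKM against 13.8 and 13.4 FPKM, without overlap, at 0.18 ± 0.09 (SE; limma adjusted p = 0.230). CHEK2, the kinase below ATM, was at 15.7 and 19.6 FPKM against 18.5 and 18.3 FPKM, with overlap, and the annotation holds 4 pseudogene copies of it whose reads could be mixed with its own.

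End-joining genes had the highest median level of the 5 roles, and all 5 had a positive difference, with a median of 0.15. XRCC4 turned negative under each of the 3 other scalings and LIG4 under 2 of them. XRCC6, the smaller Ku protein, was at 219.8 and 248 FPKM in the shNC libraries, against 260.2 and 257 FPKM with shWDR43. XRCC5, the larger Ku protein, was at 103 and 115 FPKM against 128 and 132 FPKM, with a wider gap between the groups. The log2 difference of XRCC5 was 0.26 ± 0.09 (SE; limma adjusted p = 0.133) and that of XRCC6 was 0.15 ± 0.10 (adjusted p = 0.412). Without shNC replicate 1 the XRCC6 difference was 0.058, and without shNC replicate 2 it was 0.23. The annotation holds 5 pseudogene copies of XRCC6, 2 of PARP1, and 1 each of FANCD2 and RAD51AP1. Reads of these copies could be mixed with those of the genes.

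PRKDC, the catalytic subunit of the DNA-dependent kinase that Ku recruits, was at 62.2 and 49.1 FPKM in the shNC libraries, against 64.1 and 70.0 FPKM with shWDR43. Both shWDR43 values were higher, but shNC replicate 1 lay within 2 FPKM of the nearer one, and the log2 difference of 0.27 ± 0.12 (SE; limma adjusted p = 0.197) became 0.11 without shNC replicate 2 and 0.44 without shNC replicate 1. XRCC4, the scaffold of the ligase, was at 14.6 and 18.6 FPKM against 16.4 and 17.3 FPKM, and LIG4, the ligase, at 3.60 and 4.02 FPKM against 3.89 and 4.02 FPKM. Both overlapped between groups.

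The genes of excision and single-strand break repair went both ways. PARP1, the sensor of DNA nicks, was at 70.4 and 73.7 FPKM in the shNC libraries, against 82.4 and 83.3 FPKM with shWDR43. Each group was tight and they did not overlap, at a log2 difference of 0.20 ± 0.08 (SE; limma adjusted p = 0.166). XRCC1, the scaffold that PARP1 recruits, lay in the other direction, at 10.2 and 12.0 FPKM against 9.44 and 9.00 FPKM and a log2 difference of -0.24 ± 0.10 (adjusted p = 0.196), which was -0.13 without shNC replicate 2. XPA, the damage verification protein of nucleotide excision repair, was also below in both shWDR43 libraries, at 5.73 and 5.62 FPKM against 4.25 and 5.16 FPKM. ERCC1, a subunit of the nuclease that cuts beside the lesion, was at 28.8 and 31.1 FPKM against 32.8 and 29.9 FPKM, and ERCC2, a helicase of transcription factor IIH, at 9.54 and 9.00 FPKM against 9.46 and 10.8 FPKM. Both overlapped, and ERCC1 shares 28.6% of its exon length with CD3EAP on the opposite strand.

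**Figure D2:**
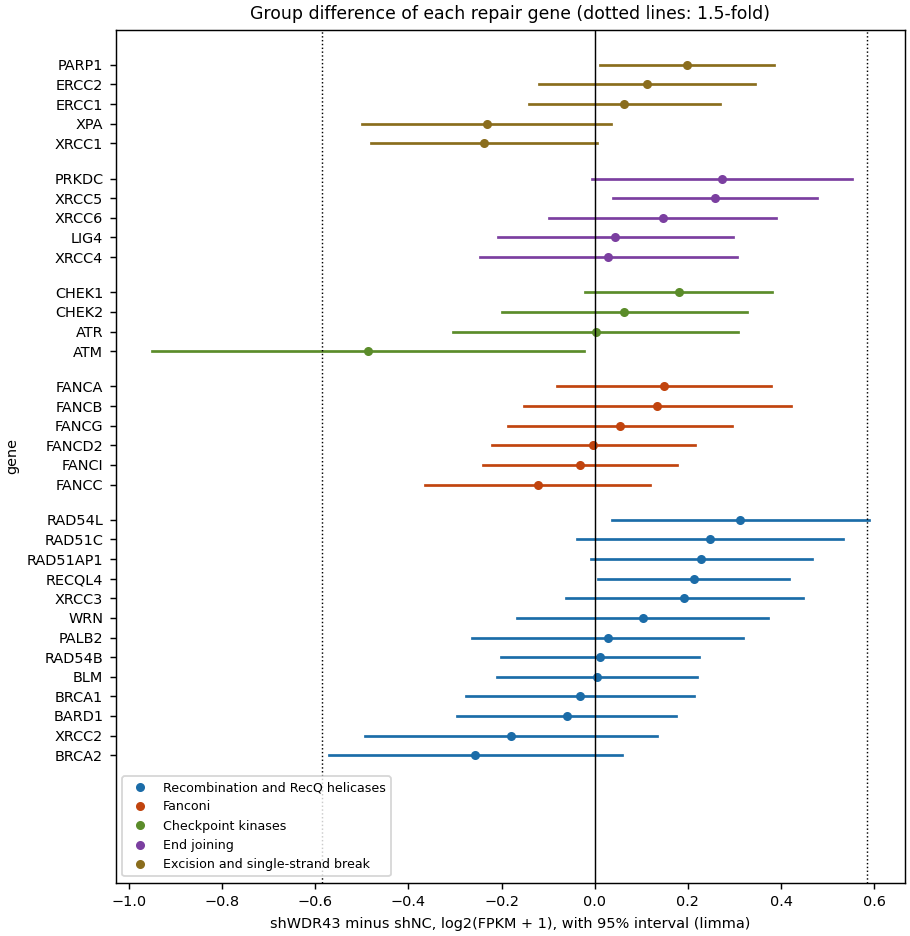
Difference between shWDR43 and shNC on the log2(FPKM + 1) scale for each repair gene (points) with its 95% interval from limma (lines), coloured by role. Dotted lines mark a 1.5-fold change; the ATM interval crosses the left one and the RAD54L interval just reaches past the right one.

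Proteins that work as pairs can be compared by the ratio of their FPKM values, and the pairs were chosen after the values had been seen. XRCC6 to XRCC5 was 2.14 and 2.17 in shNC and 2.03 and 1.94 in shWDR43, lower in both. PALB2 to BRCA2 was 0.938 and 1.05 in shNC and 1.25 and 1.37 in shWDR43, higher in both. The other ratios overlapped between groups: BRCA1 to BARD1 at 1.99 to 2.28, FANCI to FANCD2 at 2.14 to 2.37, XRCC4 to LIG4 at 4.05 to 4.63, RAD51C to XRCC3 at 2.41 to 3.25, and ERCC1 to its nuclease partner ERCC4 at 11.6 to 15.5. No ratio was given a test, since the smallest exact p would again be 0.333.

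The role medians ran from 0.03 to 0.15. The median log2 difference was 0.03 for recombination, 0.03 for Fanconi, 0.03 for checkpoint kinases, 0.15 for end joining and 0.06 for excision and single-strand break repair, beside 0.05 for all tested genes. Taken pair by pair, each shWDR43 library against each shNC library, the end-joining median was 0.05 to 0.22, above 0 in all 4 pairs. The recombination median ran from -0.04 to 0.13, the Fanconi median from -0.09 to 0.14, the checkpoint median from -0.01 to 0.06 and the excision median from -0.05 to 0.06. For all tested genes it was 0.04 to 0.06. Under median-ratio scaling, upper-quartile scaling and equal sums without MT- genes, in that order, the recombination median was -0.018, -0.024 and -0.0088, the Fanconi median -0.033, -0.040 and -0.020, and the checkpoint median -0.025, -0.031 and -0.012. The end-joining median was 0.082, 0.075 and 0.096, and 0.058 without shNC replicate 1, and the excision median was 0.0012, -0.0060 and 0.015. All tested genes had medians of -0.0071, -0.013 and 0.0044 under these scalings.

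**Figure D3:**
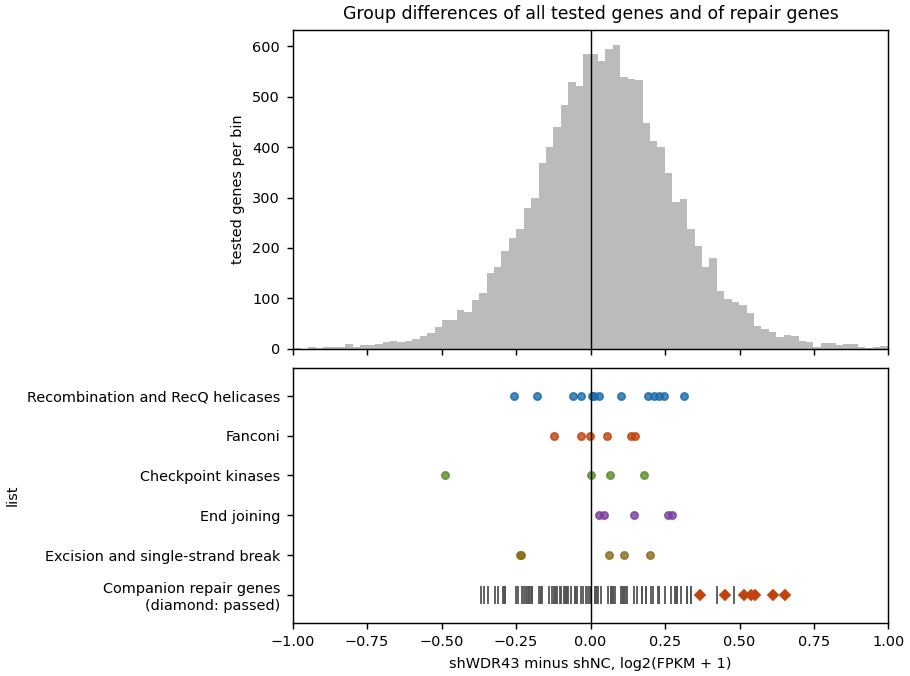
Upper panel: number of tested genes by difference between shWDR43 and shNC on the log2(FPKM + 1) scale, for the 13263 genes between -1 and 1. Lower panel: the same difference for each repair gene by role (circles) and for the companion repair genes (bars, or diamonds where they passed the test), with the 7 that passed all on the positive side.

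Other genes of these pathways were taken as whole lists, 109 genes in all, of which 104 were tested (not SWSAP1, FAAP24, SHLD1, SHLD3 and APLF). Among them 7 rose and 0 fell, beside 4.79% and 1.47% of all tested genes. Their median log2 difference was 0.02, and 54 of 104 (51.9%) were positive, beside 58.0% of all tested genes. Excision and single-strand break genes held 3 of the 7. UNG, the uracil-DNA glycosylase gene, was at 11.1 and 12.7 FPKM in the shNC libraries, against 20.3 and 18.3 FPKM with shWDR43, at a log2 change of 0.65 ± 0.10 (SE; limma adjusted p = 0.0220). DDB2, a sensor of ultraviolet damage and a known p53 target, went from 34.6 and 30.7 FPKM to 48.4 and 47.2 FPKM, at 0.54 ± 0.09 (adjusted p = 0.0238). FEN1, the flap endonuclease of replication and long-patch repair, went from 13.9 and 16.6 FPKM to 24.0 and 21.4 FPKM. In all 3 the groups did not overlap. UNG and DDB2 kept their call under each of the 3 other scalings and without each library, while FEN1 lost it under median-ratio (adjusted p = 0.0560) and upper-quartile scaling (0.0505) and without shWDR43 replicate 1 (0.0987).

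In the checkpoint list 2 of 19 rose. CDC25A, the phosphatase that CHEK1 targets for destruction, went from 1.88 and 1.797 FPKM to 3.20 and 3.47 FPKM, at a log2 change of 0.61 ± 0.12 (SE; limma adjusted p = 0.0326). RNF168, the ubiquitin ligase that marks chromatin beside breaks, went from 6.78 and 7.32 FPKM to 9.87 and 10.1 FPKM. CDC25A lost its call without shWDR43 replicate 1 (adjusted p = 0.0651) and without shWDR43 replicate 2 (0.131). RNF168 lost it there too (0.129 and 0.163), under median-ratio scaling (0.0582), upper-quartile scaling (0.0578) and equal sums without MT- genes (0.0624), and with the replicate block (0.0552). The recombination list had 1 of 30 that rose, SFR1, a recombination cofactor, which went from 10.8 and 13.4 FPKM to 18.1 and 17.1 FPKM, at 0.51 ± 0.11 (SE). The Fanconi list had 1 of 14, CENPX, a histone-fold protein that works with FANCM, which went from 19.2 and 19.4 FPKM to 26.0 and 24.4 FPKM, at 0.37 ± 0.08 (SE). Neither overlapped between groups. SFR1 lost its call under median-ratio (adjusted p = 0.0649) and upper-quartile scaling (0.0603) and without shWDR43 replicate 1 (0.0998), and leaving out shNC replicate 1 or shNC replicate 2 gave a difference of 0.37 or 0.66. CENPX lost it under the 3 other scalings (0.0767, 0.0751 and 0.0740), with the replicate block (0.0850) and without either shWDR43 library (0.341 and 0.152). In the end-joining list 0 of 11 passed with limma, with 5 positive and 6 negative differences. There 4 had an unadjusted p below 0.05, all with lower values in shWDR43. Of 13303 tested genes 1148 were lower at that p, and 26.4% were below it in either direction. Among the 4 were the nuclease gene DCLRE1C at -0.36, and RIF1 at -0.37 and TP53BP1 at -0.32, whose products guard broken ends from resection. RIF1 and TP53BP1 have exon sums of 18166 and 12991 bases. Between shNC replicate 2 and replicate 1 they differed by -0.27 and -0.30 on the log2 scale. In the same list SHLD2 was at -0.08 and MAD2L2 at 0.02. RIF1, TP53BP1, SHLD2 and MAD2L2 were named after their values were seen.

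RAD50, the gene of the coiled-coil subunit that tethers broken ends, came nearest to a fall among companions. It was at 22.04 and 23.6 FPKM in the shNC libraries, against 17.5 and 18.0 FPKM with shWDR43, with no overlap, at a log2 difference of -0.35 ± 0.08 (SE; limma adjusted p = 0.0546). It passed under a filter at 5 FPKM and under each of the 3 other scalings. The number of companions that rose was 3 under median-ratio or upper-quartile scaling, 0 without the filter on low values, and 12, 15, 2 and 4 without shNC replicate 1, shNC replicate 2, shWDR43 replicate 1 and shWDR43 replicate 2.

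Some repair genes start head to head with another gene. In the GENCODE 29 annotation of GRCh38, 18 of the 33 had a gene on the opposite strand starting within 1000 bases of their own start. That share was not counted for all tested genes. Antisense genes and pairs whose starts overlap are included. There were 19 neighbours in all, of which 13 were tested. The start was taken as the outermost end of the annotated gene, and other start sites of a gene were not considered. Of these 13 neighbours 2 rose and 0 fell, beside 4.79% and 1.47% of all tested genes. They were MCM4 beside PRKDC and TMEM167A beside XRCC4. The starts of PRKDC and MCM4, a subunit gene of the replicative helicase, lie 2 bases apart. MCM4 was at 30.4 and 28.3 FPKM in the shNC libraries, against 44.0 and 42.9 FPKM with shWDR43. The log2 change was 0.55 ± 0.08 (SE; limma adjusted p = 0.0195), beside 0.27 for PRKDC. The ratio of MCM4 to PRKDC was 0.489 and 0.578 in shNC and 0.686 and 0.613 in shWDR43, higher in both libraries. Such ratios were taken only for the 2 pairs whose neighbour rose. A higher ratio follows largely from that choice and is no separate result.

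TMEM167A, which encodes a membrane protein of the secretory pathway, and XRCC4 have annotated starts that overlap by 365 bases. TMEM167A went from 13.8 and 14.1 FPKM to 19.6 and 19.7 FPKM, a log2 change of 0.46 ± 0.08 (SE; limma adjusted p = 0.0290), while XRCC4 overlapped between groups. The TMEM167A call was lost without either shWDR43 library, at an adjusted p of 0.108 without replicate 1 and 0.107 without replicate 2, and that of both neighbours without the filter on low values, at 0.104 for MCM4 and 0.125 for TMEM167A. The ratio of TMEM167A to XRCC4, a pair also taken because its neighbour rose, was 0.947 and 0.759 in shNC. It was 1.19 and 1.14 in shWDR43, higher in both.

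The other 11 tested neighbours did not pass. Their log2 differences were 0.42 for LRRC14 beside RECQL4, 0.42 for ZFYVE21 beside XRCC3, 0.28 for DESI1 beside XRCC6, 0.22 for C12orf4 beside RAD51AP1 and 0.20 for HSCB beside CHEK2. Closer to 0 were the pseudogene CIDECP beside FANCD2 at 0.18, ABHD13 beside LIG4 at 0.15 and NPAT beside ATM at 0.11. So were NBR1 beside BRCA1 at 0.08, MOSPD2 beside FANCB at 0.03 and DCTN5 beside PALB2 at 0.01. NBR1 lies beside the outermost annotated start of BRCA1, and other BRCA1 starts were not considered. NPAT was at 4.79 and 3.91 FPKM against 4.43 and 5.13 FPKM, with overlap, beside the difference of -0.49 for ATM. Its outermost annotated start overlaps that of ATM by 158 bases. The ATM promoter window from RefSeq, chr11:108222817-108223116, begins past the NPAT start at 108222642, so from the RefSeq start they would not overlap.

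**Figure D4:**
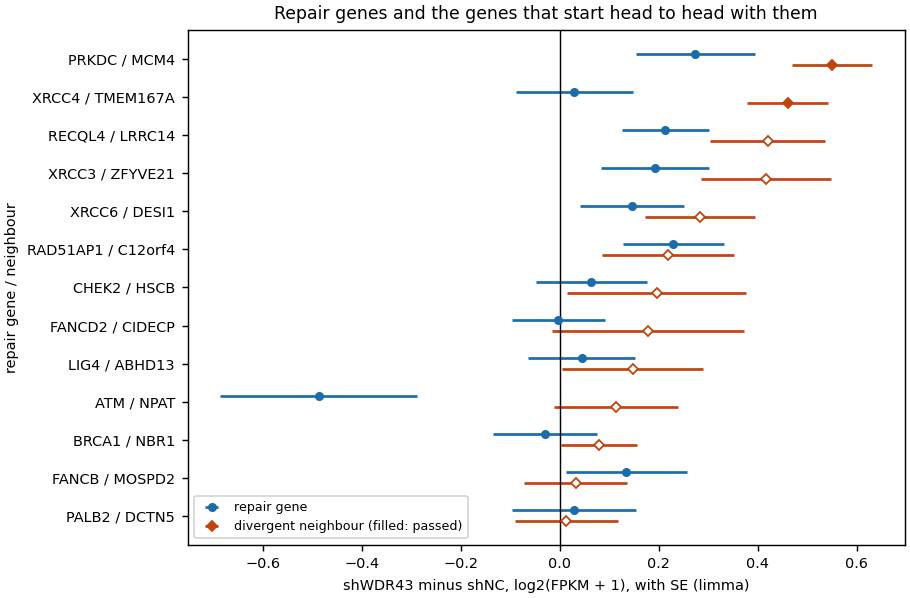
Difference between shWDR43 and shNC on the log2(FPKM + 1) scale with its SE for 13 repair genes (circles) and for the gene that starts head to head with each (diamonds, filled where the test was passed). MCM4 and TMEM167A lie at 0.55 and 0.46, and ATM lies at -0.49 while its neighbour NPAT lies at 0.11.

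Promoter sequences, from 250 bases before to 50 bases after the start, were taken from RefSeq (GRCh38.p14) for 27 of the 33 genes, and not for RAD54B, WRN, RECQL4, FANCI, XRCC5 and PRKDC. A single window was searched per gene, and its start need not be the GENCODE start used for the neighbours. The windows of FANCC and ERCC1 are chr9:95317660-95317959 and chr19:45451498-45451797, while their GENCODE starts are 95426796 and 45478828. Other start sites were not searched, so an absence of matches, as for BRCA1, covers that window only. Each was searched on both strands for TTTGGCGC or TTTCCCGC (E2F-like), CCAAT, and TTTGAA (CHR-like), the last being a motif of cell-cycle genes. E2F-like letters were in 4 of 27 (14.8%), beside 3.84% of the promoters of tested genes. CCAAT was in 13 of 27 (48.1%), beside 37.1%, and TTTGAA in 3 of 27 (11.1%), beside 9.17%. The median GC content of the 27 was 64.7%, beside 65.7% for tested genes.

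The 4 E2F-like matches are given as short stretches, 5′ to 3′ on the strand of the gene with the match in capitals. The stretches are chr7:152676097-152676136 (minus strand) for XRCC2, chr9:95317732-95317771 (minus) for FANCC, chr3:10026419-10026458 (plus) for FANCD2 and chr22:41621321-41621344 (plus) for XRCC6. XRCC2 and FANCD2 carry the reverse complement of the same letters as FANCC, and XRCC6 that of the other form. The log2 differences were -0.18 for XRCC2, -0.12 for FANCC, -0.0032 for FANCD2 and 0.15 for XRCC6, beside a median absolute difference of 0.157 for all tested genes.
XRCC2: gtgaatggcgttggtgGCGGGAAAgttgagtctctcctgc
FANCC: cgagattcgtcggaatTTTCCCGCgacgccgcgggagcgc
FANCD2: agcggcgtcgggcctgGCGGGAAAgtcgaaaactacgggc
XRCC6: agttggtcgcttccctGCGCCAAA

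The whole promoter is shown for the 2 genes at the ends of the range, RAD54L and ATM, for XRCC3, which had 5 CCAAT matches, the most of the 27, and for XRCC4, whose divergent neighbour rose. Capitals mark CCAAT, its complement ATTGG, and TTTGAA. The regions are chr1:46247438-46247737 (plus strand) for RAD54L, chr11:108222817-108223116 (plus) for ATM, chr14:103715402-103715701 (minus) for XRCC3 and chr5:83077297-83077596 (plus) for XRCC4. RAD54L has 2 CCAAT matches, and ATM has 1 CCAAT and 1 TTTGAA match. XRCC4 has 1 CCAAT match, at the start itself. A match is a run of letters and does not show binding.
RAD54L: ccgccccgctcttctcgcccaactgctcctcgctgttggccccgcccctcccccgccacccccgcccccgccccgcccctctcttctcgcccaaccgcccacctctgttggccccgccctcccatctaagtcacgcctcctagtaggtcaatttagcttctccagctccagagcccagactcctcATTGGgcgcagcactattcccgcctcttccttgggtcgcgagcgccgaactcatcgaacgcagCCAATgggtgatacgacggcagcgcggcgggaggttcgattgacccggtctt
ATM: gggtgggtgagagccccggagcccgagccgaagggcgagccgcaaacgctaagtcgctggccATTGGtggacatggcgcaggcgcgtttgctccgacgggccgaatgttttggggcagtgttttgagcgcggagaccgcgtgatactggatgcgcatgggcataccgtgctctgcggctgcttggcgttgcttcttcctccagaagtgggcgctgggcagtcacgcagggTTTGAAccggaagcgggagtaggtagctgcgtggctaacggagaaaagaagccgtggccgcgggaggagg
XRCC3: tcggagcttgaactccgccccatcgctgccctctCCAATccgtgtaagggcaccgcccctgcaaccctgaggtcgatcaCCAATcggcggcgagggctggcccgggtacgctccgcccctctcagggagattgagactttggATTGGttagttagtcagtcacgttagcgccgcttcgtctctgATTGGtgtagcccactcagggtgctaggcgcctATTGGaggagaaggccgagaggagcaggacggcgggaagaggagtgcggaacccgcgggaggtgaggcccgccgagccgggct
XRCC4: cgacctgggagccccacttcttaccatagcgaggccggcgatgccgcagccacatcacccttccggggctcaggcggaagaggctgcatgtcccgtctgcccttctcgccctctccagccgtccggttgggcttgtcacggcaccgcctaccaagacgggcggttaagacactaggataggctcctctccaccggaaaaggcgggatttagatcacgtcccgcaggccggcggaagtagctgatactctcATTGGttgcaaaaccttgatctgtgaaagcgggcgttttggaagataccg

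Which repair genes passed depended on the library left out. Without shNC replicate 1, RAD54L (0.44) and PRKDC (0.44) rose and XRCC1 (-0.34) fell, 9.09% of the 33 beside 13.2% of all tested genes. Without shNC replicate 2, XRCC5 (0.34), XRCC6 (0.23) and PARP1 (0.23) rose and ATM (-0.83) fell, 12.1% beside 19.6%. Without shWDR43 replicate 1 the median log2 difference of the 33 was 0.069, beside 0.050 for all tested genes. Without shWDR43 replicate 2 ATM alone fell (-0.56, adjusted p = 0.0370), 3.03% of the 33 beside 3.47%. In 21 genes the sign of the difference was the same in all 4 fits, among them ATM, RAD54L, PARP1, CHEK1, RECQL4, BRCA2 and the 3 genes of Ku and PRKDC. The remaining 12 changed sign in at least 1 fit. Of the genes that kept their sign, RAD54L ran from 0.19 to 0.44, RAD51C from 0.12 to 0.37, XRCC3 from 0.12 to 0.26, XRCC2 from -0.34 to -0.022 and XPA from -0.35 to -0.12.

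**Figure D5:**
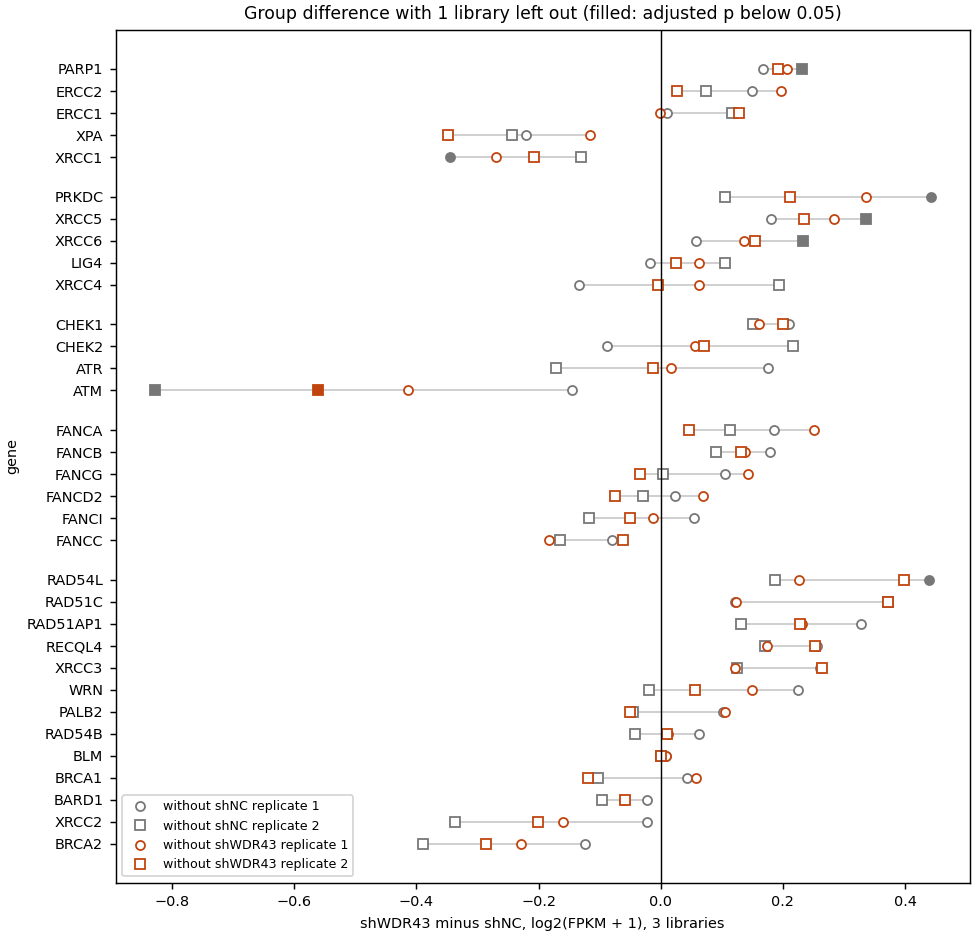
Difference between shWDR43 and shNC on the log2(FPKM + 1) scale for each repair gene when 1 of the 4 libraries is left out (grey, an shNC library left out; orange, an shWDR43 library; filled where the adjusted p was below 0.05). ATM moves from -0.83 to -0.15 between the 2 fits that leave out an shNC library.

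The shNC libraries differed from each other, and across all genes the difference went with transcript length. Of the 33 repair genes 24 were lower in shNC replicate 2 than in replicate 1, a count not made for all tested genes. The median of shNC replicate 2 minus replicate 1 was -0.085 on the log2 scale for the 33. For all tested genes it was -0.011. Among the 16 with a summed exon length over 5634 bases, 14 were lower and 2 higher, and among the other 17, 10 were lower and 7 higher. The median difference was no larger in the longer genes, at -0.080 beside -0.086 on the log2 scale, and short genes such as RAD54L at -0.25 (3212 bases) and RAD51AP1 at -0.20 (2558 bases) were also lower. ATM, with the longest exon sum of 23972 bases, differed by -0.68 on the log2 scale between the shNC libraries, ATR by -0.35 and PRKDC by -0.34, while XRCC4 differed by 0.33 and CHEK2 by 0.30. Across 13234 tested genes the Spearman correlation of exon length with this difference was -0.35, with 0.17 for shWDR43 replicate 2 against replicate 1 and -0.07 for the group difference. Among the 33 repair genes the same correlations were -0.37, 0.17 and -0.20, in that order. With log2 exon length, the Pearson correlation among the 33 was -0.54 for the shNC difference and -0.26 for the group difference. Over all tested genes these were -0.19 and -0.01. Genes are not independent replicates, all points share the same libraries, and the part of length in the group differences was not tested.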

How the data were processed

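The 4 libraries of HCT116 cells, 2 shNC and 2 shWDR43, were grouped by their titles. The authors' deposited values were read as FPKM, inferred from the values, though TPM for a subset of genes would look alike. HISAT2, RSEM, edgeR, Trimmomatic, FastQC, CASAVA 1.8 and the build GRCh38 are named, without roles, per the submitters' processing notes, and per the labels' protocols a TruSeq RNA kit was used. Strand setting and annotation release: not given in the sources used here. One blank row was left out. Symbols came from a name table (29170 of 29286 identifiers), positions and exons from GENCODE 29 (28468), promoters from RefSeq. Whole reads could not be recovered: the fullest 1% window of ratios between libraries held 0.966% of low genes.

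Limma 3.58.1 in R 4.3.3 was fitted on log2(FPKM + 1) for 13303 genes that reached 1 FPKM in 2 or more libraries, with group as the only term, trend and robust settings, two-sided p-values, and adjustment over all tested genes. Fold changes on this scale understate low genes. The model was run on simulated data whose noise was drawn from its own fitted spread, so that run cannot show how well the model suits these libraries. Recovery of changes as small as those of the repair genes is not reported here. The genes described, companion lists and tests were chosen with earlier results of these data known. All 33 genes are named, with each companion that passed and the 2 smallest p-values in a direction where none did, and each tested divergent neighbour. Alternatives were a pseudocount of 0.1, no filter, a filter at 5 FPKM, 3 scalings, non-robust settings, the replicate number as a block, and each library left out in turn. A crossed block was added after seeing the data. Python 3.11.15, pandas 2.3.3 and matplotlib 3.10.9 were used. Some companion genes are not reported here by name.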

Additional observations from a re-analysis of the deposited data

How the results depend on the processing

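The count of 0 repair genes that rose and 0 that fell held under every setting with 4 libraries except the crossed block, and became 0 to 3 that rose and 0 to 1 that fell when a library was left out. Over all tested genes 637 rose and 196 fell. That became 292 that rose under median-ratio scaling, 327 under upper-quartile scaling, 15 that rose and 2 that fell without the filter, and 258 to 1795 that rose and 133 to 815 that fell with a library left out. Companions that rose numbered 7, but 3 under median-ratio or upper-quartile scaling, 0 without the filter, and 2 to 15 with a library left out. Companions that fell numbered 0, but 1 under median-ratio scaling, upper-quartile scaling, equal sums without MT- genes or the filter at 5 FPKM, and 0 to 7 with a library left out.

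The median recombination difference of 0.03 became 0.19 with the filter at 5 FPKM, where fewer members were tested, -0.02 under median-ratio and upper-quartile scaling, -0.0088 with equal sums without MT- genes, and -0.019 to 0.11 with a library left out. The Fanconi and checkpoint medians of 0.03 turned negative under each of the 3 scalings, and the end-joining median of 0.15 stayed positive at 0.075 to 0.096. Of 423 values of single repair genes under alternatives, 38 changed sign, 9 newly passed and 376 kept sign and call. Under median-ratio scaling the changed signs were -0.018 for PALB2, -0.047 for RAD54B, -0.052 for BLM, -0.0031 for FANCG, -0.053 for ATR, -0.031 for XRCC4 and -0.0072 for LIG4. Under upper-quartile scaling they were -0.024, -0.054, -0.058, -0.0098, -0.059, -0.038 and -0.013 for the same genes in that order, with -0.0038 for CHEK2 and -0.0060 for ERCC1. With equal sums without MT- genes they were -0.0088 for PALB2, -0.035 for RAD54B, -0.039 for BLM, -0.042 for ATR and -0.017 for XRCC4.

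With a library left out, sign changed in BRCA1 (-0.12 to 0.058), PALB2 (-0.050 to 0.11), RAD54B (-0.041 to 0.063), WRN (-0.019 to 0.22), FANCD2 (-0.076 to 0.069), FANCG (-0.035 to 0.14), FANCI (-0.12 to 0.055), ATR (-0.17 to 0.18), CHEK2 (-0.088 to 0.22), XRCC4 (-0.13 to 0.19), LIG4 (-0.018 to 0.11) and ERCC1 (-0.0021 to 0.13). The cause was not tested.

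Deviations of same-numbered libraries correlated at -0.15 over genes, and nothing in the labels says that a number marks a shared culture. With the replicate block 413 genes rose and no repair gene passed, and 5 companions rose. With the crossed block 1375 genes rose and 579 fell, 11 companions rose and 2 fell, and 1 repair gene fell.

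Where 1 library was left out, the single one remaining in its group was assumed to vary as the other group does. Read depth is unknown, so precision at low levels cannot be stated.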
